A study of Mus musculus with 24 samples.

Results

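The Dlk1 to Dio3 domain is an imprinted stretch of mouse chromosome 12. It holds the protein genes Dlk1, Rtl1 and Dio3 and, between them, the long noncoding RNAs Meg3, Rian and Mirg, small nucleolar RNA (snoRNA) genes and one of the large miRNA clusters of mammals. A list of 45 genes of the domain was examined on 24 Affymetrix Mouse Gene 1.0 ST arrays, and 42 of them were measured by a probe set with a single gene symbol, out of 19938 such genes in all. Each gene was represented by the probe set selected on the highest mean over all 24 arrays, a choice that used no contrast between groups. The domain itself was proposed with earlier knockout and wild-type results of these data in view, so the differences and adjusted p-values below describe it and are not independent support. The 42 comprised 3 protein genes and 39 noncoding genes: Meg3, Rian, the snoRNA genes DQ267101 and DQ267102, and 35 miRNA genes. Of the miRNA genes, 8 lay before Rian and 27 after its start in the gene order, 2 of the latter (Mir341 and Mir370) starting within Rian. Mirg and Mir410 shared 1 probe set and were not among the 42, and Mir758 was not found as a single symbol.

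The arrays compare Eed knockout (KO) with wild-type (WT) mouse cells, both as embryonic stem cells (ESCs) on day 0 and as embryoid bodies (EBs), aggregates in which ESCs differentiate, on days 3 and 7. EED belongs to the core of PRC2, the Polycomb complex that methylates histone H3 and represses genes. KO cells came from E14 and from J1, WT cells from J1 and from V6.5, with 2 arrays per line and day and so 4 arrays per genotype and day. All were expanded with LIF-conditioned medium on inactivated embryonic fibroblasts, and EBs were started without LIF from cells depleted of those fibroblasts. J1 was the only line present in both genotypes, so a difference between KO and WT also sets E14 against V6.5. Whether the 2 arrays of a line and day came from separate cultures is not given by the labels, so the spread within such a pair may be technical. P-values for comparisons of single lines rest on that spread alone. Those for KO against WT and for changes between days also take in differences between the 2 lines of a genotype.

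In an imprinted domain the 2 parental copies of a gene are used unequally. Dlk1, Rtl1 and Dio3 are transcribed from the paternal chromosome, whereas Meg3, Rian, Mirg and the snoRNAs and miRNAs processed from these long transcripts come from the maternal one. DNA methylation of an intergenic control region, laid down in sperm, keeps the noncoding RNAs off on the paternal copy, and in pluripotent stem cells expression of Meg3 and its neighbours is known to differ widely between lines. The arrays do not separate the parental copies, so every value below is a sum over both.

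The mature sequences of the 4 miRNA genes called lower in KO on day 3 and again on day 7 are shown to identify what these genes make; the seed, bases 2 to 8 of the mature RNA and the part that pairs with targets, is in capitals. They are from RefSeq (GRCm38.p6), as are those below, and all 4 genes lie on the plus strand of chromosome 12. The array probe sets measured the genes and did not distinguish the 2 arms of a hairpin.
miR-377-5p (chr12:109740515-109740536): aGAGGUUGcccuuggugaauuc
miR-377-3p (chr12:109740553-109740574): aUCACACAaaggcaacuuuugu
miR-382-5p (chr12:109733781-109733802): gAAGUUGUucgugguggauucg
miR-382-3p (chr12:109733819-109733840): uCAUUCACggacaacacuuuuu
miR-380-5p (chr12:109711806-109711827): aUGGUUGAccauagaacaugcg
miR-380-3p (chr12:109711842-109711863): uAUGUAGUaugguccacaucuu
miR-134-5p (chr12:109734145-109734166): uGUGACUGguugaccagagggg
miR-134-3p (chr12:109734184-109734203): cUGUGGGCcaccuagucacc

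All 35 measured miRNA genes were found in RefSeq's miRNA table, with 66 mature arms and 64 different seeds, so the cluster did not consist of copies of 1 seed. Only 2 seeds were shared among these 66 arms, each by 2 arms, and the arms that share them are shown. The other arm of Mir376c, Mir487b, Mir539 and Mir485 was not listed there, so a seed shared through it would be missed. One shared seed belongs to Mir379 and Mir411 and the other to Mir376c and Mir376b.
miR-379-3p (chr12:109709102-109709123): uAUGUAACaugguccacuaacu
miR-411-3p (chr12:109710225-109710246): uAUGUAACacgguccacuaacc
miR-376c-5p (chr12:109722733-109722754): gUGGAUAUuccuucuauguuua
miR-376b-5p (chr12:109723471-109723492): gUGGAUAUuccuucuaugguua

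RefSeq promoter sequences, 250 bases before to 50 after a start site, are shown for Meg3, the long noncoding RNA with the largest difference on days 3 and 7, and for Dlk1 and Dio3, the protein genes at the 2 ends, whose RNA is described first below. CG dinucleotides, where DNA methylation falls in mammals, are in capitals.
Meg3 promoter (chr12:109540746-109541045, plus strand): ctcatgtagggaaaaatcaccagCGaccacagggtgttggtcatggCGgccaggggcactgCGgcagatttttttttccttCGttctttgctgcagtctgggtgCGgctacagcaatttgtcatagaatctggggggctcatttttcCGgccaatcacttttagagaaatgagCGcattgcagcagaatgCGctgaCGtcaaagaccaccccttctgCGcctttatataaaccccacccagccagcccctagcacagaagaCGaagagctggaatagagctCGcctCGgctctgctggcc
Dlk1 promoter (chr12:109452573-109452872, plus strand): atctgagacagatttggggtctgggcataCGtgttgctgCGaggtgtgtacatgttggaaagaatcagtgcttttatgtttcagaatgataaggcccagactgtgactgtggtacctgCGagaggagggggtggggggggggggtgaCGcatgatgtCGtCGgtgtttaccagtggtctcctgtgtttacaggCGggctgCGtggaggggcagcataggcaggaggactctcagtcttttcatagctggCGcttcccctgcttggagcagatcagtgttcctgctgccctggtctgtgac
Dio3 promoter (chr12:110278980-110279279, plus strand): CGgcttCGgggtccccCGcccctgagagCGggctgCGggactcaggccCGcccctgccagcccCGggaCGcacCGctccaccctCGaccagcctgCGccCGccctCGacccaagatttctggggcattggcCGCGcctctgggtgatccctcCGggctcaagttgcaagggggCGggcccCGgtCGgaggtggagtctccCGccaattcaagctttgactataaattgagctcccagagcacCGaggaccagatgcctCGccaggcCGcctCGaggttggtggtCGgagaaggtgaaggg

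These windows held 13 CG in Meg3, 9 in Dlk1 and 25 in Dio3, against a median of 7 over the 32851 promoters of the table. The corresponding window of Rian held 0 CG, a count shared by 5.4% of promoters. The Meg3 window contained the letters TGACGTCA, the core of a cAMP response element, once, starting at position -57 from the start site; 1.79% of all promoters of that length hold these letters, which read the same on both strands. The windows of Dlk1, Rian and Dio3 and that of a second start of Meg3 did not hold them.

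The series was first checked for arrays that stand apart. Eed itself was at 7.06 to 7.48 in KO and 10.28 to 11.02 in WT on day 0, and KO lay below WT on every array of every day. Across genes, r between the 2 arrays of each pair was 0.990 to 0.995 in 11 of 12 pairs. The exception was the WT J1 pair on day 7 (r = 0.962), in which 1256 genes, 10 of them of the domain, lay at least 2-fold apart. Day 7 results are therefore also given without each array of that pair. The ESC markers Pou5f1, Nanog, Sox2 and 5 others averaged 11.42 to 12.03 on the log2 scale over the day 0 arrays of both genotypes.

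None of the 3 protein genes was called between KO and WT. All values are log2 expression values as deposited, a difference is KO minus WT in log2 units with its standard error (SE), and a gene was called at a limma adjusted p under 0.05 over all 19938 genes and a difference of at least 1, that is 2-fold. Dlk1, a membrane protein related to Notch ligands that restrains the differentiation of fat cell precursors, read 8.57 and 8.66 in KO E14, 8.80 and 8.49 in KO J1, 8.50 and 8.38 in WT J1 and 8.64 and 8.48 in WT V6.5 on day 0. The groups overlapped, and the difference was 0.13 ± 0.29 on day 0, 0.12 ± 0.29 on day 3 and 0.10 ± 0.29 on day 7. On day 7 Dlk1 read 11.75 and 12.42 in KO E14, 11.67 and 12.19 in KO J1, 10.72 and 12.57 in WT J1 and 12.38 and 11.97 in WT V6.5. Both genotypes were high by then, with the lowest and the highest value both in the WT J1 pair, and without the lower of those arrays the difference was -0.31.

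Rtl1, a protein gene derived from a retrotransposon and needed in the placenta, was not called on any day, with differences of -0.32 ± 0.15, -0.36 ± 0.15 and -0.35 ± 0.15 on days 0, 3 and 7 (adjusted p 0.39, 0.29 and 0.13). On day 3 its KO arrays read 6.59, 6.13, 6.62 and 6.25 and its WT arrays 6.65, 6.78, 6.68 and 6.94, so the groups did not overlap that day, whereas they did on days 0 and 7. The gene model of Rtl1 overlapped 18 other genes of the RefSeq table, 10 of them members, which included the miRNA genes Mir127, Mir431, Mir434 and Mir136 that are transcribed against it. The strand the probes read is not stated in the sources used here, and whether signal from Rtl1 is separate from that of these RNAs was not checked.

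Dio3, the deiodinase that inactivates thyroid hormones, leaned the other way. On day 3 it read 7.04 and 6.90 in KO E14, 7.01 and 7.32 in KO J1, 6.04 and 5.97 in WT J1 and 6.69 and 6.43 in WT V6.5, every KO array above every WT array. On days 0 and 7 the groups overlapped, with the KO E14 arrays highest at 7.65 and 8.05 on day 0. The differences were 0.88 ± 0.35, 0.78 ± 0.35 and 0.60 ± 0.35 on days 0, 3 and 7, with adjusted p of 0.26, 0.34 and 0.29, and none was called. Without the WT J1 day 7 array that read 7.85, the day 7 difference was 0.97 with a limma adjusted p of 0.034, still short of 2-fold.

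The long noncoding RNAs and snoRNA genes were far lower in the knockout. Meg3, a noncoding RNA from the maternal chromosome that is often used as a readout of the domain's imprint in stem cells, read 8.21 and 8.62 in KO E14, 8.01 and 7.28 in KO J1, 10.23 and 9.76 in WT J1 and 10.39 and 10.55 in WT V6.5 on day 0. Every KO array lay below every WT array, and KO E14 read above KO J1 on both arrays. The difference was -2.20 ± 0.24 (adjusted p = 1.3e-05) on day 0. On day 7 the KO arrays of Meg3 gave 7.48, 6.91, 7.02 and 7.12 and the WT arrays 11.09, 11.94, 12.09 and 11.84, a wider gap than on day 0, with the KO lines now overlapping. The difference was -3.96 ± 0.24 on day 3 and -4.61 ± 0.24 on day 7 (adjusted p = 3.3e-10 and 4.95e-12).

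Rian, the long RNA whose introns carry snoRNAs, read 5.52, 5.87, 5.50 and 5.03 on the KO arrays and 7.59, 6.55, 8.42 and 8.27 on those of WT on day 0. The groups were separate, and the WT J1 arrays read below the WT V6.5 arrays. Its differences were -2.23 ± 0.31, -3.35 ± 0.31 and -3.35 ± 0.31 on days 0, 3 and 7 (adjusted p = 2.1e-04, 5.5e-07 and 5.4e-08), and the day 0 call was lost with the 2 arrays of a line and day averaged (adjusted p = 0.053). A probe set assigned to both Rian and the snoRNA gene AF357355, which is not among the members, gave -3.34, -4.41 and -4.41. On day 7 the KO arrays of Rian fell within 5.07 to 5.20 and the WT arrays within 7.70 to 9.14.

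DQ267102, a snoRNA gene that starts within Rian, had the lowest difference of all 19938 genes on days 0 and 3. It read 7.59, 8.38, 7.75 and 6.95 on the KO arrays and 11.50, 10.50, 11.90 and 11.15 on those of WT on day 0, and 7.53, 7.10, 6.61 and 6.88 in KO against 11.32, 12.55, 11.99 and 11.66 in WT on day 3. No KO array came within 2 log2 units of a WT array on either day, and the differences were -3.60 ± 0.36, -4.85 ± 0.36 and -4.66 ± 0.36 on days 0, 3 and 7 (adjusted p = 2.8e-06, 9.2e-09 and 2.9e-09). DQ267101, the other snoRNA gene, differed by -1.11 ± 0.31 on day 0 (adjusted p = 0.064, not called), -1.60 ± 0.31 on day 3 and -2.05 ± 0.31 on day 7 (adjusted p = 0.0054 and 4.7e-05). Its KO arrays read 4.29 to 4.90 and its WT arrays 5.66 to 7.23 on day 7, with the lowest WT value in J1. Its day 3 call was lost without KO E14 or KO J1 (adjusted p = 0.15 and 0.056).

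**Figure D1:**
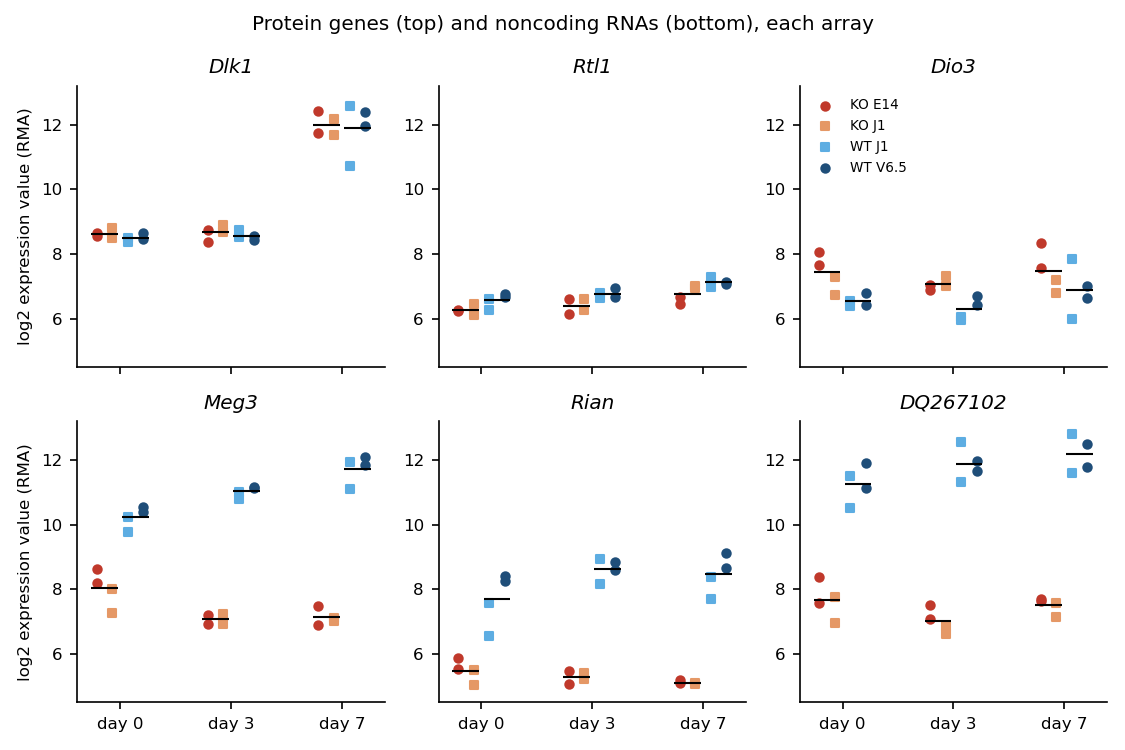
Log2 expression values of 3 protein genes (top) and 3 noncoding genes (bottom) on each of the 24 arrays, by day; colours and symbols mark the 4 clones and black bars the means of the 4 arrays of a genotype and day. Dlk1 overlapped between KO and WT and rose in both by day 7, whereas Meg3, Rian and DQ267102 were lower on every KO array than on every WT array of the same day.

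Across the domain, 5 members were lower in KO on day 0, 8 on day 3 and 21 on day 7, against 0.0903%, 0.0903% and 1.28% of all genes tested. None was higher by limma (all genes 0.461%, 0.667% and 3.08%), and at an unadjusted p under 0.05 only 1, 1 and 0 members were. At that unadjusted threshold 23, 29 and 38 members were lower on days 0, 3 and 7. Shares of all genes at the unadjusted threshold are not given here or below, so such counts cannot be set against the percentages above. The day 0 members were Meg3, Rian, DQ267102, Mir377 and Mir380. Day 3 added DQ267101, Mir382 and Mir134, and day 7 held these 8 and 13 further miRNA genes. The median difference of the 42 members was -0.41, -0.54 and -0.97 on the 3 days, while the medians of all genes were -0.03, -6.6e-04 and -0.04. Of the 39 noncoding members, 22, 22 and 34 had every KO array below every WT array, as did 5.01%, 4.30% and 7.13% of all genes. In bulk RNA, fewer cells that make an RNA and less of it per cell cannot be told apart.

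The early counts depended on which lines entered. Without KO E14 or KO J1 the day 0 count was 3 in both cases and the day 3 count 3 and 4, and without WT J1 the day 0 count was 9. Meg3, Rian and DQ267102 were called on all 3 days in each of those fits. The day 7 count was 21 and 18 without the first and the second array of the WT J1 pair that stood apart. It was 35 without the 2-fold minimum, a looser rule to which the shares of all genes given above do not apply.

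Among the miRNA genes, Mir377, Mir382 and Mir380 had the largest differences on every day. Mir377 read 4.01, 4.08, 4.05 and 4.41 on the KO arrays and 5.69, 6.07, 6.07 and 6.15 on those of WT on day 0, without overlap and with a difference of -1.86 ± 0.40 (adjusted p = 0.013). That call was lost without KO E14 or KO J1 (adjusted p = 0.26 and 0.084) and with the 2 arrays of a line and day averaged (0.20), as was the day 3 call (-1.96 ± 0.40; 0.21, 0.11 and 0.17). On day 7 it read 4.04, 4.14, 4.06 and 4.07 in KO, 6.09 and 7.01 in WT J1 and 8.34 and 8.79 in WT V6.5, a difference of -3.48 ± 0.40 (adjusted p = 1.5e-06). The KO arrays sat within a narrow band near the low end of the scale, where differences are compressed. The WT lines were set apart from each other. Its 2 mature arms, shown above, share their seeds with no other listed arm of the measured members.

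Mir382 read 4.03, 4.47, 3.91 and 4.08 in KO, 5.31 and 6.46 in WT J1 and 8.42 and 8.16 in WT V6.5 on day 7, and differed by -1.45 ± 0.45, -2.03 ± 0.45 and -2.97 ± 0.45 on days 0, 3 and 7 (adjusted p = 0.11, 0.016 and 5.3e-05). Again the KO arrays were alike, near the low end of the scale, and WT J1 lay between KO and V6.5. The day 3 call of Mir382 was lost without WT V6.5 day 3 replicate 1 or KO E14 day 3 replicate 2 (adjusted p = 0.051 and 0.052), without KO E14 or KO J1 altogether (0.28 and 0.13), and with averaged arrays (0.25).

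Mir380, whose product is known to repress the tumour suppressor p53, read 3.46, 3.62, 3.19 and 3.55 on the KO arrays and 4.69, 4.87, 4.93 and 5.18 on those of WT on day 0. It was separated on all 3 days, with differences of -1.46 ± 0.34, -1.79 ± 0.34 and -2.60 ± 0.34 (adjusted p = 0.023, 0.0049 and 7.8e-06). Its day 0 call was lost without any 1 of 4 arrays (KO E14 replicate 1, KO J1 replicate 1, WT J1 replicate 2 and WT V6.5 replicate 2), where the adjusted p was 0.052 to 0.061. It was also lost with averaged arrays (0.097) and without KO E14, KO J1 or WT V6.5 (0.20, 0.14 and 0.058), and the day 3 call without KO E14 (0.17). Mir134, studied for its part in the dendritic spines of neurons, averaged 7.25 ± 0.21 in KO and 7.95 ± 0.04 in WT on day 0 (SD, n = 4) without overlap, and read 7.01 to 7.32 in KO and 8.25 to 9.43 in WT on day 7. Its differences were -0.71 ± 0.22 (adjusted p = 0.11, not called), -1.18 ± 0.22 and -1.89 ± 0.22 (adjusted p = 0.0049 and 2.0e-06), and its day 3 value fell just short of 2-fold without WT J1 day 3 replicate 2 (adjusted p = 0.018) or WT J1 altogether (-0.95), and the call was lost without KO E14 or KO J1 (adjusted p = 0.11 and 0.062).

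The 13 miRNA genes called only on day 7 had differences between -2.27 ± 0.34 (Mir300) and -1.02 ± 0.16 (Mir665), with adjusted p of 0.0011 or less. Mir300 read 3.73 to 4.13 in KO and 5.08 to 7.20 in WT, and Mir323 4.38 to 4.73 and 5.40 to 7.04 (-1.68 ± 0.28). Mir679 was at 6.77 to 7.12 in KO and 8.11 to 8.52 in WT (-1.37 ± 0.16). The others were Mir539 (-1.43), Mir485 (-1.42), Mir379 (-1.29), Mir668 (-1.20), Mir154 (-1.17), Mir376a (-1.07), Mir487b (-1.07), Mir341 (-1.06) and Mir376b (-1.03), and no KO array of any of the 13 reached a WT array. Mir665, Mir341, Mir376a, Mir376b and Mir487b lay so near the 2-fold line that leaving out a single array took each below it at least once, Mir376a and Mir376b as far as -0.84.

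By position, 1 of the 8 miRNA genes before Rian (Mir665) and 16 of the 27 after its start were lower on day 7, with median differences of -0.51 and -1.07. On day 0 the counts were 0 of 8 and 2 of 27. At an unadjusted p under 0.05, limma put 3 of the 8 lower on day 0 and 6 on day 7. For the pairs that share a seed, Mir379 was called on day 7 and Mir411 was not (-0.88 ± 0.17), and Mir376b was called and Mir376c was not (-0.79 ± 0.22); differences between members of a pair were not tested. All 18 miRNA genes that were not called on any day also read lower in KO on day 7, from -0.91 (Mir369) to -0.19 (Mir673). Many of the miRNA genes were read near the low end of the scale, where such values compress differences: 13 of the 35 lay above the array's median on at least 2 arrays. Mir377, Mir382 and Mir485 were among these 13 through WT arrays alone.

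**Figure D2:**
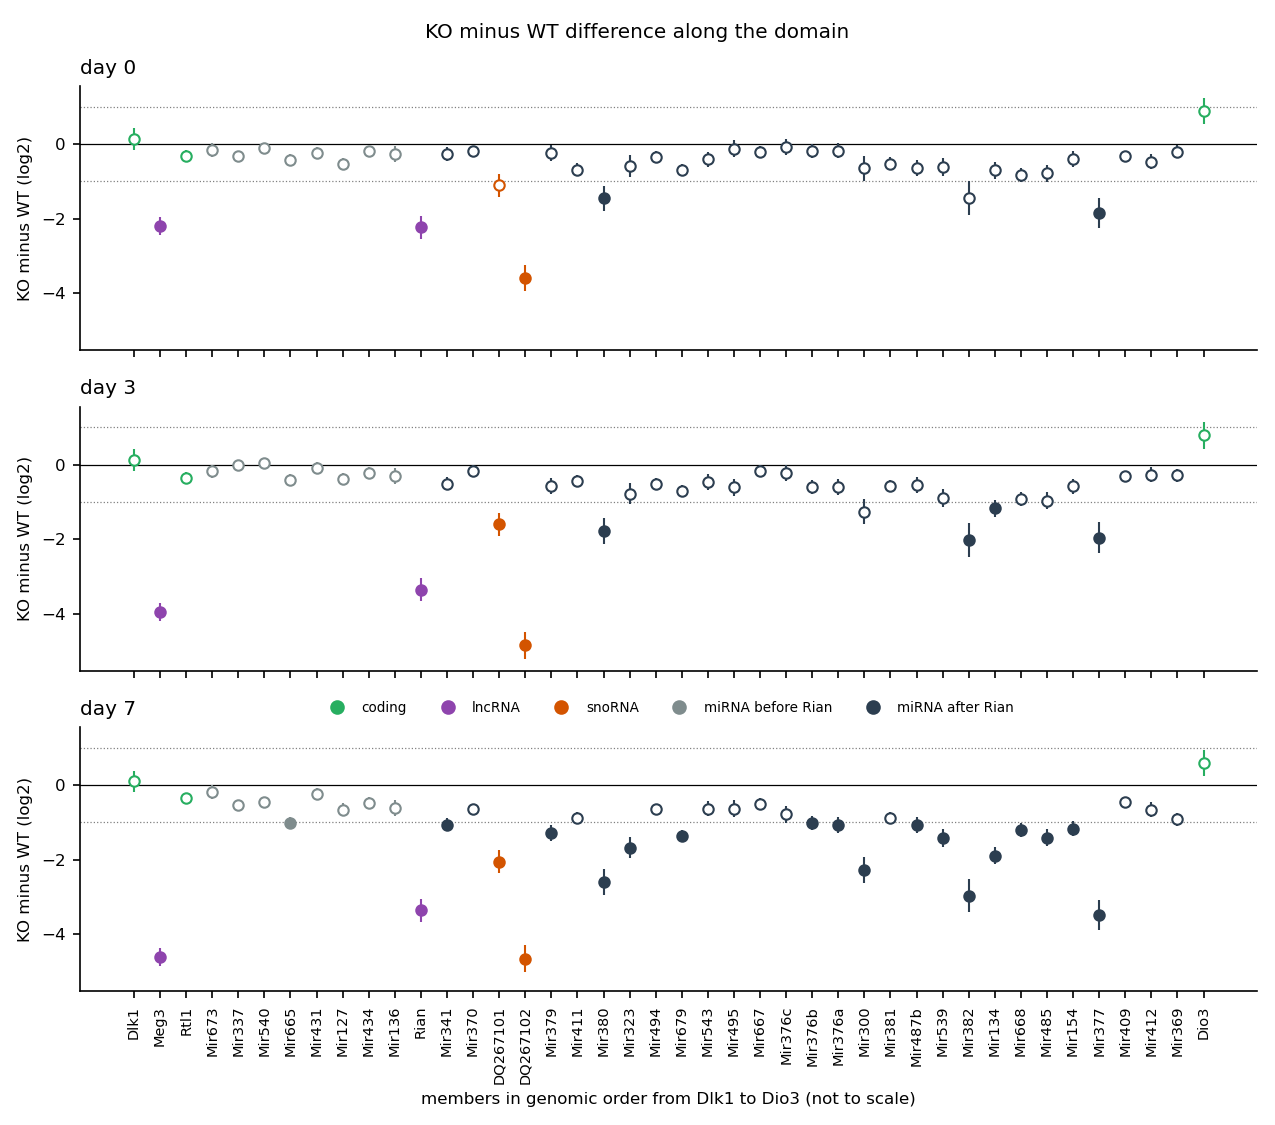
KO minus WT difference (log2, ± SE of the limma model) of the 42 members on days 0, 3 and 7, in their order from Dlk1 to Dio3; filled points were called, open points were not, dotted lines mark 2-fold, and colours mark the kind of gene. The called members are all noncoding and all lower, while Dlk1 and Dio3 at the ends lay at or above 0. Their number was 5 on day 0 and 21 on day 7 (all genes 0.0903% and 1.28% lower). At an unadjusted limma p under 0.05, 23 members were lower on day 0 and 38 on day 7, counts to which those percentages do not apply.

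The domain also changed with differentiation, in WT at Dlk1 and several noncoding RNAs and in KO at Dlk1. In WT, no member was called between days 0 and 3 by limma (all genes 2.04% in either direction), with 5 higher and 0 lower at an unadjusted p under 0.05. By day 7, 8 members had risen in WT (all genes 5.09%): Dlk1 by 3.41 ± 0.25, Meg3 by 1.51 ± 0.21, Mir377 by 1.56 ± 0.34, Mir382 by 1.46 ± 0.38, Mir300 by 1.34 ± 0.29, Mir380 by 1.15 ± 0.29, Mir134 by 1.07 ± 0.19 and Mir379 by 1.00 ± 0.18. None had fallen by limma, at the unadjusted threshold either (all genes 3.89%). The WT count was 5 without WT J1 day 7 replicate 2, and 4 when the V6.5 line was left out.

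In KO, Dlk1 rose by 3.38 ± 0.25 and was the only member called on day 7 (all genes 2.05%). No member was called on day 3 (all genes 1.17%) and none had fallen by day 7 (all genes 0.421%), with 2 members lower at an unadjusted p under 0.05 on both days by limma. Meg3 was one of these: it was lower than on day 0 by -0.96 ± 0.21 on day 3 and -0.90 ± 0.21 on day 7 (adjusted p = 0.005 and 0.0038), short of 2-fold. From day 0 to day 3, the 10 fibroblast markers described below had a median change of -1.10 in KO, with 4 called lower and 0 higher. In WT their median change was -0.51, with 1 called lower and 0 higher. Whether feeder cells bear on the Meg3 change, or on its interaction below, was not tested. The noncoding members other than Meg3 had changes of -0.37 (Rian) to 0.09 (Mir127) in KO by day 7. The KO count was 2, with Meg3 lower as the second, without KO J1 day 0 replicate 2, KO J1 day 3 replicate 2 or the whole KO J1 line.

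The difference between these changes was tested as the interaction of genotype and day, which uses the same arrays. Between days 0 and 3 it was called for Meg3 alone (-1.76 ± 0.29, adjusted p = 0.015; all genes 0.0201% below 0). By day 7 it was called for 6 members (all genes 1.45% below 0): Meg3 at -2.40 ± 0.29, Mir377 at -1.62 ± 0.49, Mir300 at -1.62 ± 0.41, Mir134 at -1.19 ± 0.27, Mir323 at -1.09 ± 0.34 and Mir379 at -1.04 ± 0.26. For Dlk1 the day 7 interaction was -0.03 ± 0.35, a value smaller than its error. The count of 6 was 3 without any 1 of 3 arrays (WT J1 day 0 replicate 1, KO E14 day 0 replicate 2 or WT V6.5 day 7 replicate 2) and 12 without WT J1 day 7 replicate 1. It was 1, Meg3 alone, when KO E14, KO J1 or WT V6.5 was left out, and 12 when WT J1 was.

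**Figure D3:**
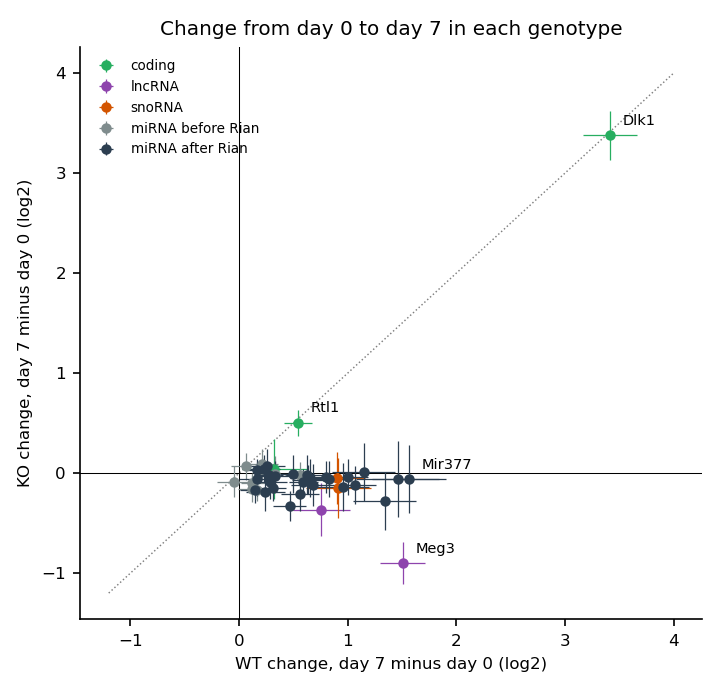
Change from day 0 to day 7 (log2, ± SE) of the 42 members in WT (horizontal) against KO (vertical), with equal change on the dotted line and colours for the kind of gene. Dlk1 lies on the line at 3.41 and 3.38, whereas the noncoding members spread to the right along 0 and Meg3 lies at 1.51 in WT and -0.90 in KO.

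Within line J1, the only one with both genotypes, 4, 7 and 16 members were lower in KO on days 0, 3 and 7 (all genes 0.171%, 0.261% and 1.38%). This comparison shares its arrays with the comparison of all KO and WT arrays and was fitted as 12 separate means. Meg3 differed by -2.35 ± 0.27, -3.81 ± 0.27 and -4.45 ± 0.27, DQ267102 by -3.65 ± 0.45, -5.20 ± 0.45 and -4.85 ± 0.45, and Rian by -1.81 ± 0.30, -3.24 ± 0.30 and -2.96 ± 0.30. Mir377 differed by -2.48 ± 0.36 on day 7, and Mir341, Mir379, Mir376b, Mir487b and Mir154, called over all arrays that day, were not called within J1. Dlk1, Rtl1 and Dio3 were not called in J1, with day 7 differences of 0.29 ± 0.37, -0.16 ± 0.18 and 0.08 ± 0.39. On day 3 the J1 difference of Dio3 was 1.16 ± 0.39, past 2-fold and with an unadjusted limma p of 0.0084 but an adjusted p of 0.15, and on day 0 it was 0.53 ± 0.39. The day 0 count was 2 without WT J1 replicate 1 or KO J1 replicate 2, the day 3 count was 4, 3 and 4 without KO J1 replicate 1, KO J1 replicate 2 and WT J1 replicate 2, and the day 7 count was 17 and 12 without the first and second WT J1 array.

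The WT lines differed from each other in parts of the domain. Rian was 1.28 ± 0.30 higher in V6.5 than in J1 on day 0 (adjusted p = 0.026), and Mir382 was higher by 1.23 ± 0.30, 1.68 ± 0.30 and 2.40 ± 0.30 on days 0, 3 and 7. On day 7 Mir377, Mir300 and Mir376c were higher in V6.5 by 2.02 ± 0.36, 1.67 ± 0.29 and 1.02 ± 0.22. These 5 members were the ones called on at least 1 day (all genes 2.12%), all higher in V6.5, and the comparison shares the WT J1 arrays with the J1 pair. The V6.5 minus J1 difference of Meg3 was 0.47 ± 0.27, 0.27 ± 0.27 and 0.44 ± 0.27 on the 3 days and was not called. The count was 10 without WT J1 day 7 replicate 2 and 3 without WT V6.5 day 7 replicate 2.

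Between the KO lines E14 and J1 no member was called on any day by limma (all genes 1.29%). At an unadjusted p under 0.05, 2 members were higher in E14 on day 0, 0 on day 3, and 1 higher and 1 lower on day 7. The E14 minus J1 difference of Meg3 was 0.77 ± 0.27 on day 0 (adjusted p = 0.20), -0.02 ± 0.27 on day 3 and 0.12 ± 0.27 on day 7.

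**Figure D4:**
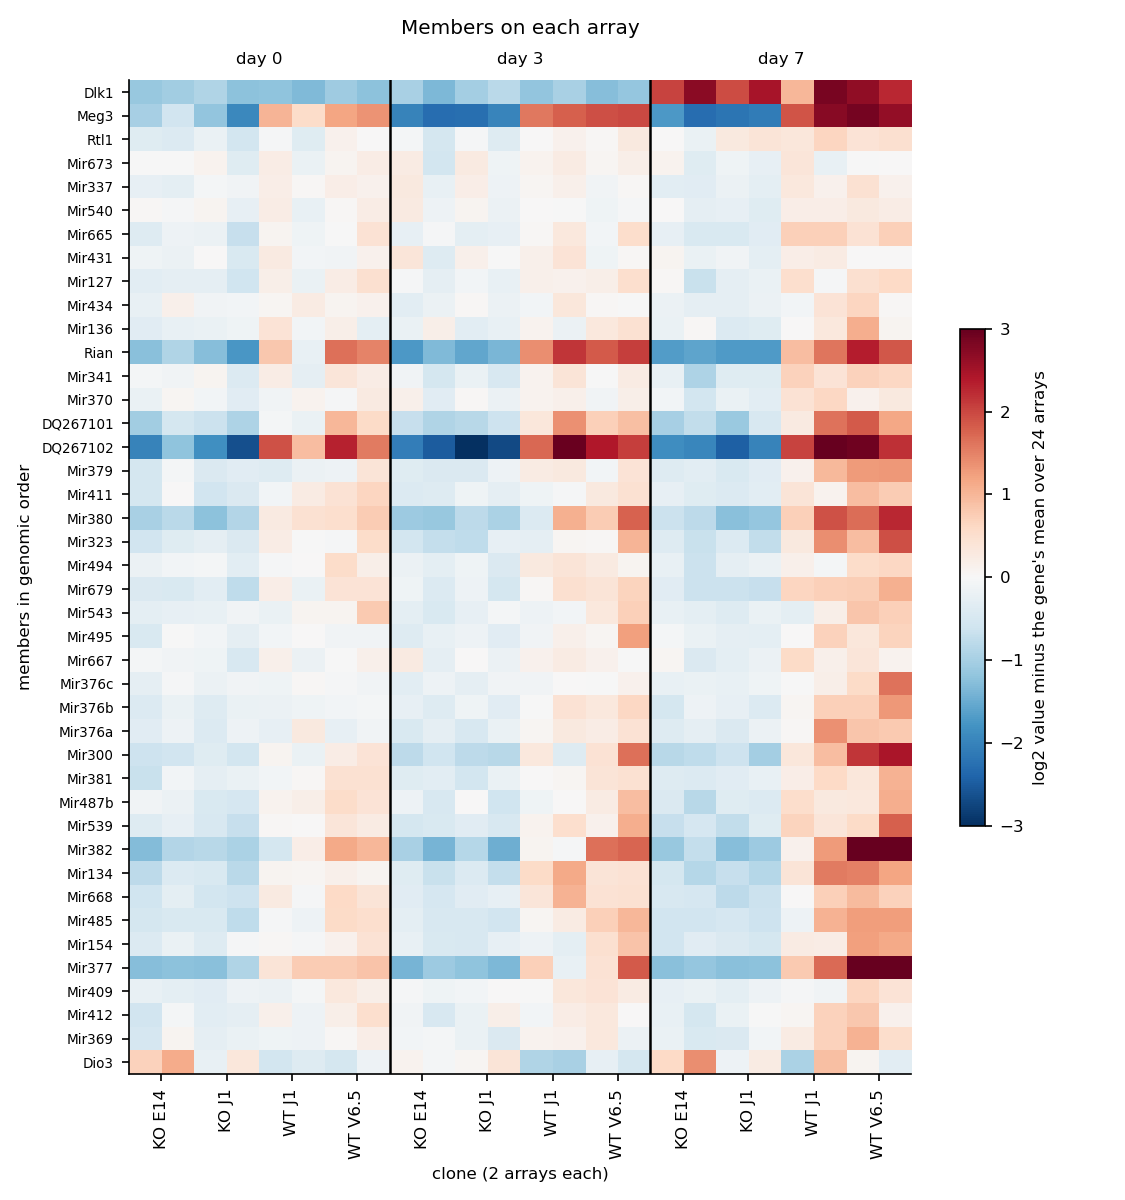
Log2 value of each member (rows, in genomic order) on each array (columns, by day and clone) minus that member's mean over the 24 arrays; red is above and blue below the mean, and the scale ends at 3 log2 units. The KO arrays are below the mean for Meg3, Rian, DQ267102 and most miRNA genes after Rian, the WT V6.5 arrays of day 7 are highest for Mir377 and Mir382, and Dlk1 changes with the day in all 4 clones.

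Genes just outside the domain were read for comparison. Of the 10 measured genes nearest to Dlk1 on its far side and the 10 nearest to Dio3, 0 were called KO against WT by limma on any day. Of all genes, 0.0903%, 0.0903% and 1.28% were called lower and 0.461%, 0.667% and 3.08% higher on days 0, 3 and 7. A count of 0 among 20 genes therefore does not mark where the difference ends. On day 7 Evl (-0.37), Wars (0.52) and Hsp90aa1 (0.55) had limma adjusted p of 0.014, 0.0405 and 0.0072, short of 2-fold. At an unadjusted p under 0.05 none of the 20 differed on days 0 and 3, and 4 on the Dlk1 side and 4 on the Dio3 side did on day 7. Their differences ran from -0.39 to 0.56 over all 3 days. Inside the domain, 6 measured genes were not on the member list, and on day 7 Mir329 (-1.67 ± 0.21), Mir541 (-1.65 ± 0.24), Mir496a (-1.19 ± 0.19) and the snoRNA gene AF357341 (-1.18 ± 0.17) were lower in KO, whereas Mir299a (-0.70 ± 0.14) and Mir666 (0.01 ± 0.15) were not called. The probe set shared by Mirg, the host RNA of the far part of the miRNA cluster, and Mir410 read 4.27 to 4.68 in KO and 5.51 to 7.04 in WT on day 0, with differences of -1.76, -2.44 and -2.79 on days 0, 3 and 7 (adjusted p = 0.019, 0.0011 and 2.5e-05).

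Regulators of imprints and DNA methylation were read beside the domain, from a list of 18 genes. On day 0 Eed alone was called (-3.44 ± 0.23). The de novo and maintenance DNA methyltransferases Dnmt3a, Dnmt3b and Dnmt1 were not called on any day, nor were the PRC2 genes Ezh2 and Suz12. At an unadjusted limma p under 0.05, 3 of the 18 genes were higher and 2 lower on day 0, and 6 and 2 on day 3. Dnmt3b was among the lower on both days (-0.57 ± 0.27 and -0.91 ± 0.27). Tet1 (0.57 ± 0.17) and Tet3 (0.60 ± 0.16) were among the higher on day 0. Dnmt3l, a cofactor of de novo methylation that is high in pluripotent cells, was at 11.03 to 11.55 in KO and 10.12 to 10.88 in WT on day 0 (0.68 ± 0.34, not called) and at 9.99 to 10.73 in KO and 5.68 to 6.51 in WT on day 7 (4.23 ± 0.34, adjusted p = 6.2e-09). Zfp57, a zinc finger protein that guards methylated imprint control regions, was higher in KO by 1.17 ± 0.16 on day 3 and 1.02 ± 0.16 on day 7 (adjusted p = 1.5e-04 and 7.9e-05). On day 7 Dppa3 (1.95 ± 0.32), Tet1 (1.18 ± 0.17) and Jarid2 (1.16 ± 0.15) were higher too. Tet2 was called on day 3 (1.11 ± 0.25) and fell just short of 2-fold on day 7 (0.98 ± 0.25, limma adjusted p = 0.0075).

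Cell type markers also differed between KO and WT, most on day 7, and their part in the results of any day was not tested. On day 7 all 8 ESC markers were higher and all 6 primitive blood markers lower in KO, with array means of 10.85 to 11.52 against 7.71 to 8.50 for the former and 5.77 to 6.49 against 9.88 to 11.4 for the latter. Of 6 cardiac markers 4 were lower, and of 10 fibroblast markers 3. On day 0 limma called 0 of 8 ESC, 0 of 6 blood and 0 of 6 cardiac markers. At an unadjusted p under 0.05 it put 2 cardiac markers higher in KO that day, and 0 of the other 2 lists. On day 3 limma called 2 ESC markers (Zfp42 and Esrrb) and 1 cardiac marker (Tbx20) higher in KO. Fibroblast markers, which would show feeder cells left in the culture, averaged 7.81 to 8.97 on the KO arrays and 7.29 to 7.68 on the WT arrays of day 0. Of the 10, Lox and Fbln2 were called higher in KO that day. Whether feeder cells bear on the values of the domain was not tested. Of 7 endoderm and 5 measured neural markers limma called none on any day, with 2, 2 and 4 endoderm and 0, 0 and 2 neural markers at an unadjusted p under 0.05 on days 0, 3 and 7. Of 5 measured trophoblast markers 1 was higher and 2 were lower on day 7.

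Outside the domain, the genes whose levels followed Meg3 most closely over the 24 arrays were Eed (r = 0.893), Ing2 (0.879), Akap8l (0.874), Pafah1b1 (0.836) and Zfp787 (0.829). Among the members r with Meg3 was 0.976 for DQ267102, 0.968 for Rian and 0.925 for DQ267101, and the miRNA genes ranged from 0.395 (Mir673) to 0.922 (Mir134). Dlk1 had r = 0.066, Dio3 -0.478 and Rtl1 0.590. The arrays share genotype, line and day, so these values describe a likeness over the same 24 samples and carry no p-value.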

How the data were processed

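RNA of 24 samples was hybridised to Affymetrix Mouse Gene 1.0 ST arrays, 1 array per sample. The authors deposited log2 expression values made with RMA in Affymetrix Power Tools, per the submitters' processing notes; versions and the genome build of the array were not stated there. RMA values carry no detection call, and the number of arrays limits the precision. Silica column extraction recovers small RNAs poorly, and probe sets named for miRNAs can also read their precursors.

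Of 35556 probe sets, 21789 had 1 gene symbol in the platform annotation, 1621 had several and 12146 were not listed. The highest-mean probe set represented each of 19938 genes. limma 3.58.1 (R 4.3.3) fitted 6 genotype-by-day means with the clone, a line of 1 genotype, as a random block (statmod 1.5.0, consensus correlation 0.16, 18 residual degrees of freedom). It also fitted 12 line-by-genotype-by-day means for comparisons of single lines (12 residual degrees of freedom). Over 20 comparisons, a call needed p under 0.05 after Benjamini-Hochberg adjustment over all genes and a log2 difference of at least 1; the fit was tested on simulated data. All members were accounted for, and those given in full were the protein genes, long noncoding RNAs, snoRNA genes and miRNAs called between KO and WT on at least 1 day. Members, the lists of neighbours, regulators and cell type markers, and the rule to name the 5 outside genes most like Meg3 were chosen with earlier results of these data known. The main fits did not use replicate numbers to pair samples. Alternatives covered the block, averaged arrays, the 2-fold minimum, normalization, a filter on low values, probe set choice, variance moderation, probe sets with several symbols, single arrays and single lines.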

Additional observations from a re-analysis of the deposited data

Results flagged for a closer look

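Among 252 combinations of member, genotype and day, 9 had 1 array far from the other 3, and chance gives about 1 in 20. In KO these were Mir665 in E14 day 3 replicate 2 at 6.90, Mir679 in E14 day 7 replicate 1 at 7.12, Mir487b in E14 day 7 replicate 2 at 5.30 (low), Mir667 in J1 day 0 replicate 2 at 8.02 (low) and Mir377 in J1 day 0 replicate 2 at 4.41. In WT they were Mir665 in V6.5 day 7 replicate 1 at 7.36 (low), Mir127 in V6.5 day 3 replicate 2 at 7.39, Mir668 in J1 day 3 replicate 2 at 8.47 and Mir485 in J1 day 7 replicate 1 at 6.28 (low). The last is an array of the WT J1 day 7 pair that stood apart.

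The change from day 0 differed between the genotypes, by limma's interaction term, for Meg3 on day 3 (-1.76, adjusted p = 0.015) and on day 7 for Meg3 (-2.40, adjusted p = 1.15e-05), Mir379 (-1.04, 0.013), Mir323 (-1.09, 0.050), Mir300 (-1.62, 0.015), Mir134 (-1.19, 0.0065) and Mir377 (-1.62, 0.039).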

How the results depend on the processing

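Leaving out 1 array at a time gave 4 to 7, 7 to 9 and 18 to 21 members lower in KO on days 0, 3 and 7, 5 to 12 changed in WT, 1 to 2 in KO, 3 to 12 in the interaction, 2 to 5, 3 to 8 and 11 to 17 in the J1 pair, 3 to 10 between the WT lines and 0 between the KO lines. With the 2 arrays of a line and day averaged, 2 members were lower on day 0 and 3 had an interaction, and without the clone block 3 had one. Without the 2-fold minimum the counts were 8 on day 0 and 35 on day 7, 24 in WT, 3 in KO, 11 in the interaction, 25 in the J1 pair on day 7 and 8 between WT lines. Shares of all genes without that minimum are not given here. With low values filtered the counts were 11 on day 7, 5 in WT, 10 in J1 on day 7 and 3 between WT lines, since 18 of the 42 members passed. Rian, Mir377, Mir382 and Mir485 passed that filter through WT arrays alone. The filtered counts are therefore no separate support for lower values in KO. Quantile normalization again gave 2 in KO. Without KO E14 the counts were 3 on day 0, 3 on day 3 and 1 in the interaction. Without KO J1 they were 3, 4 and 1, with 2 in KO. Without WT J1 they were 9 on day 0 and 12 in the interaction, and without WT V6.5 they were 4 in WT and 1 in the interaction. The cause of these shifts was not tested. The day 7 difference of Dlk1, 0.35 without WT J1 day 7 replicate 2, reversed to -0.31 without replicate 1 of that pair, -0.05 without KO E14 day 7 replicate 2 and -0.17 without WT J1, uncalled each time. Of 2703 values for single members, 2620 kept their direction and side of the threshold, 49 lost a call, 31 gained one and 3 reversed. Same-numbered samples deviated together weakly at the median (correlation 0.06 over 66 pairs of groups), with a range of -0.40 to 0.47 and 30 pairs over 0.1. The replicate block gave 5, 8 and 21 members lower in KO on days 0, 3 and 7, as without it, and 5 in the J1 pair on day 0. Signals near the low end of the RMA scale limit what can be said of the dimmer miRNA genes.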
